A study of Mus musculus with 6 samples.

Results

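The integrated stress response is the programme by which cells under stress slow general protein synthesis while a few transcription factors are made in larger amounts. The 10 genes described here encode those factors, their partners and the feedback that ends the response: Atf4, Atf3, Atf5, Ddit3, Trib3, Cebpb, Cebpg, Nupr1, Jdp2 and Ppp1r15a. They were taken by gene symbol from a table of estimated read counts with 55487 rows, in which 11 rows carried one of these names. The additional row was a second Ddit3 entry with 0 counts in every library. All 10 genes had enough counts to be tested, among 12669 genes tested in all.

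The cells were B16F10, a mouse melanoma line. They carried either a scramble short hairpin RNA (shCtr, 3 libraries) or the hairpin against OSGEP that the study numbers 2 (shOSGEP, 3 libraries), delivered by lentivirus and followed by puromycin selection. Both groups were therefore infected and selected, and each group's 3 libraries came from independent infections. KEOPS, whose catalytic subunit OSGEP is, adds t6A to the tRNAs that read codons beginning with A (ANN codons). The groups represent 1 hairpin in 1 cell line measured in bulk, so that fewer cells with an RNA and less RNA per cell cannot be told apart.

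In the integrated stress response, kinases that sense different stresses phosphorylate the alpha subunit of the initiation factor eIF2. Initiation then falls in general, but messages with short upstream reading frames, such as that of ATF4, are translated better. ATF4 is a basic leucine zipper (bZIP) protein that pairs with C/EBP proteins and binds composite sites in genes for amino acid synthesis and transport and in genes for further factors, among them CHOP (encoded by Ddit3), ATF3 and TRIB3. GADD34 (encoded by Ppp1r15a) brings a phosphatase to eIF2 and so closes the loop. RNA levels, the measurement here, give neither eIF2 phosphorylation nor the amount of any of these proteins.

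The target sequence that the study lists for this hairpin is shown because the hairpin is what separates the groups. The listed sequence is 41 bases long, and which of these bases the hairpin pairs with was not tested. The stretch lies in the coding part of Osgep on the minus strand of chromosome 14 (GRCm38). It has 22 bases in exon 4 of 11 (50917836 to 50917857) and 19 bases in exon 5 (50917485 to 50917503).
OSGEP#2: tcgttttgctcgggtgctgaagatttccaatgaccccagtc

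Osgep itself was at 20.6, 58.6 and 21.8 CPM in shCtr replicates 1, 2 and 3, and at 4.28, 0.542 and 5.52 CPM in the shOSGEP replicates. CPM are counts per 1000000 counts of the library, after edgeR's TMM correction of library size. The Log2FC (shOSGEP minus shCtr) was -3.29 ± 0.876 (SE, n = 3 per group; edgeR quasi-likelihood p = 0.00524, exact permutation p = 0.1), and the groups did not overlap. Values after ± are SE for a Log2FC and SD for a level. The library with the least Osgep, shOSGEP replicate 2, was also the library with the highest level of 9 of the 10 stress response genes, all but Cebpg.

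Library totals ran from 18915587 to 29487384 counts. Replicate 2 stood apart in both groups, and replicate 1 differed in some measures too. The shCtr replicate 2 library deviated from the mean of the other shCtr libraries by base composition. Genes with under 40% GC lay 3.18 below that mean on the log2 scale (median of 659 genes). Genes with over 60% GC lay 1.43 above it (576 genes). Its share of mitochondrial reads was 0.585%, against 1.30% to 4.75% in the other libraries. All 7 melanocyte lineage markers were tested in these melanoma cells, and their summed level was 17000 to 29600 CPM in shCtr and 3550 to 18100 CPM in shOSGEP, with the lowest value in shOSGEP replicate 2. Of 5 haematopoietic markers, 2 were at 0 in every library and the 5 summed to at most 9.29 CPM, while endothelial, keratinocyte and other epithelial markers reached at most 0.31 CPM. The values without replicate 2 are given beside the full comparison.

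All 10 stress response genes had a positive Log2FC in shOSGEP, and 6 of them passed the test. By the threshold that the study used (Log2FC beyond 0.5 and unadjusted p under 0.05), 6 of the 10 were higher (Atf4, Atf5, Ddit3, Nupr1, Ppp1r15a and Trib3), against 1.59% of all genes tested, and 0 were lower, against 0.426% of all genes. Their median Log2FC was 1.47, and that of all genes tested was -0.03. In 7 of the 10, all 3 shOSGEP values lay above all 3 shCtr values, which held for 3.49% of all genes in this direction and 2.87% in the other. With 3 libraries against 3, an exact permutation test of a single gene cannot give a p below 0.1.

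No member reached an adjusted p under 0.05 in edgeR (adjusted p = 1.00 for each), where the share of all genes was 0% and 256 genes had an unadjusted p under 0.05 beyond a Log2FC of 0.5. DESeq2 called 1 of the 10 at an adjusted p under 0.05, Trib3 (adjusted p = 0.0426), against 0.105% of all genes. limma-voom with sample quality weights and the replicate number as a block called 7 at that level, the same 6 and Cebpg, against 6.73% of all genes higher. In that fit the SE of these 7 genes lay close together, from 0.148 to 0.160, and the limma p for Trib3 was 4.98e-51. A p that small cannot rest on 3 libraries per group alone, so the calls of that fit are to be read with caution.

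Without replicate 2 in either group, the same 6 genes passed the study's threshold, against 1.26% of all genes, and the median Log2FC was 0.88. Without shOSGEP replicate 2 alone, 2 of them passed, Trib3 and Nupr1, against 0.416% of all genes, and the median was 0.92. The same 2 genes were left without shCtr replicate 3, where 108 of all 13199 genes passed as higher. They were also left without replicate 3 of both groups (108 of 13096 genes). Without shCtr replicate 1 (266 of 12941 genes higher), Atf5 and Ppp1r15a did not pass. Atf5 also did not without shOSGEP replicate 3 (274 of 13105) or without replicate 1 of both groups (188 of 12716). Without shOSGEP replicate 1 (182 of 12886 genes higher), Atf3 and Cebpb passed as well, and Atf3 also did without shOSGEP replicate 3. With the replicate number as a block, again the same 6 passed, against 2.32% of all genes, with a median of 1.43.

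**Figure D1:**
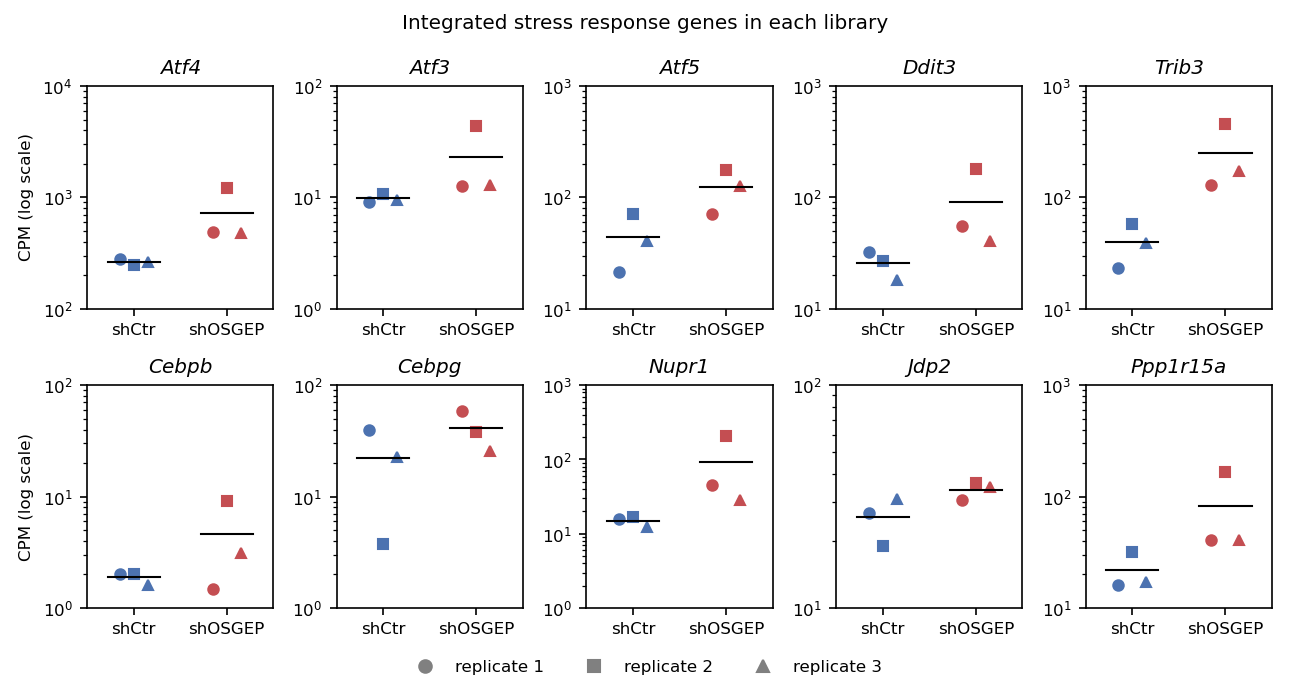
Level of each of the 10 stress response genes (CPM, log scale) in the 3 shCtr (blue) and 3 shOSGEP (red) libraries, with the marker shape giving the replicate number and the line the group mean. Replicate 2 is the highest shOSGEP library for every gene except Cebpg, and the groups overlap for Cebpb, Cebpg and Jdp2.

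Atf4, which encodes the central factor of the response (chr15:80255184-80257541, plus strand), was at 280, 245 and 263 CPM in the shCtr replicates and at 489, 1210 and 481 CPM in the shOSGEP replicates. On this scale the control libraries lay close together and every shOSGEP library lay above them, with replicate 2 far above replicates 1 and 3. Per transcript length (TPM, explained below) the controls were further apart, at 368, 166 and 351, and again below every shOSGEP library. The mean went from 263 ± 17.8 to 726 ± 418 CPM (SD, n = 3), a Log2FC of 1.47 ± 0.50 (SE, 2.76-fold, edgeR p = 0.0182, exact permutation p = 0.1). Without replicate 2 the Log2FC was 0.84 (SE 0.284). Without shOSGEP replicate 2 alone it was 0.90 and no longer passed the threshold, which it did without replicate 2 of both groups.

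Atf5 (chr7:44812256-44816658, minus strand) encodes a related bZIP factor that is also translated through upstream reading frames and is known for its part in mitochondrial stress. The shCtr libraries held 21.4, 71.0 and 40.7 CPM and the shOSGEP libraries 71.2, 175 and 126 CPM. The groups touched, with the highest control at 71.0 and the lowest shOSGEP library at 71.2 CPM. The Log2FC was 1.48 ± 0.563 (SE, 2.79-fold; edgeR p = 0.0293, exact permutation p = 0.1). Unlike the other members past the threshold, Atf5 had a smaller change in replicate 2 than in replicates 1 and 3, with log2 ratios of 1.73, 1.30 and 1.63, and without replicate 2 its Log2FC was 1.67 (SE 0.456). Its transcript has 61.7% GC, in the class that shCtr replicate 2 overrepresented, and with offsets for GC content and length the Log2FC was 1.81 ± 0.299 (SE). Exons of Atf5 overlap Il4i1 and Nup62 on the opposite strand, whose Log2FC were 0.92 ± 0.629 and -0.40 ± 0.473 (SE).

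The ATF4 partners of the C/EBP family did not pass the threshold. Cebpb (chr2:167688915-167690418, plus strand) encodes a C/EBP factor of differentiation and inflammation that also binds with ATF4. It was near the bottom of the measured range, at 2.00, 2.02 and 1.61 CPM in shCtr and 1.49, 9.14 and 3.10 CPM in shOSGEP. The groups overlapped, and the first shOSGEP library lay below all controls (32 counts against 47 in the same-numbered control, a ratio of 0.745 with a 95% exact binomial interval of 0.46 to 1.19, counting error only). The Log2FC was 1.29 ± 0.719 (SE; edgeR p = 0.11, exact permutation p = 0.4), and 0.35 without replicate 2. Of its 31-base words, 19.61% also occur in other genes, chiefly in Tmem189 on the opposite strand, which was at 222 to 480 CPM and had a Log2FC of -0.46 ± 0.441. The library kit was not stated to keep strand, so reads of the shared stretch cannot be told apart.

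Cebpg (chr7:35046422-35056573, minus strand) encodes a short C/EBP protein that forms heterodimers with ATF4. Its values were 39.7, 3.74 and 22.9 CPM in shCtr and 58.8, 38.1 and 25.8 CPM in shOSGEP. The groups overlapped, and the low shCtr replicate 2 value, 76 counts, gave that replicate a log2 ratio of 3.35 against 0.56 and 0.17 in the other two. The Log2FC was 0.89 ± 0.764 (SE; edgeR p = 0.279, exact permutation p = 0.3), and 0.43 without replicate 2. The Cebpg transcript has 43.3% GC. In shCtr replicate 2, genes of 40% to 50% GC lay 1.13 below the mean of the other shCtr libraries (median, log2 scale). With GC and length offsets the Log2FC of Cebpg was 0.85 ± 0.354 (SE) and passed the threshold, but with these offsets and the replicate block it did not.

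Ddit3 (chr10:127290774-127296288, plus strand) encodes CHOP, a C/EBP-related factor linked to cell death under long stress. The shCtr replicates had 32.4, 26.7 and 18.0 CPM and the shOSGEP replicates 55.5, 178 and 40.4 CPM. All shOSGEP libraries lay above all controls. The Log2FC was 1.83 ± 0.632 (SE, 3.56-fold; edgeR p = 0.0192, exact permutation p = 0.1), 0.93 without replicate 2, where it still passed, and 0.92 without shOSGEP replicate 2 alone, where it did not. Ddit3 overlaps Mars1, a methionyl-tRNA synthetase gene and itself an ATF4 target, on the opposite strand, with 6.78% of its 31-base words in other rows, the second Ddit3 entry included. Ddit3 counted per Mars1 read was 0.299, 0.0864 and 0.109 in shCtr and 0.429, 1.11 and 0.226 in shOSGEP. It was higher in each same-numbered comparison, but the groups overlapped.

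Of 5 genes linked to CHOP, 3 had enough counts to be tested. By the threshold 0 passed, against 1.59% of all genes higher and 0.426% lower, so so few genes say little. Ero1l, an oxidase of the endoplasmic reticulum, had a Log2FC of 1.09 ± 0.653 (SE). It passed as higher with GC and length offsets, with these and the replicate block, with weighted and blocked limma-voom, and without shCtr replicate 1. Bbc3, encoding the death protein PUMA, had 0.83 ± 0.595 (SE). Bcl2l11, encoding BIM, had -0.06 ± 0.442 (SE). Their groups overlapped, and the other two genes of the list, Tnfrsf10b and Pmaip1, did not exceed 0.426 CPM in any library.

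Trib3 (chr2:152337422-152344032, minus strand) encodes a pseudokinase that ATF4 and CHOP induce and that restrains ATF4. Its levels were 23.2, 57.9 and 38.5 CPM in shCtr and 128, 454 and 171 CPM in shOSGEP. The lowest shOSGEP library was above the highest control. The mean went from 39.9 ± 17.4 to 251 ± 177 CPM (SD, n = 3), and the Log2FC of 2.66 ± 0.624 (SE, 6.30-fold; edgeR p = 0.00258, exact permutation p = 0.1) was the highest of the 10, though within its error of that of Nupr1. The order of these 2 genes turned round when shCtr replicate 1, shOSGEP replicate 3, or both libraries numbered 1 or 3 were left out. The same-numbered log2 ratios were 2.46, 2.97 and 2.15, at least 4.45-fold in each same-numbered comparison. Without replicate 2 the Log2FC was 2.28 (SE 0.375). Trib3 passed the threshold under all 19 alternative settings, with values of 1.93 to 3.02.

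Nupr1 (chr7:126623249-126630861, minus strand) encodes a small stress-induced chromatin regulator. Its shCtr levels were 16, 16.7 and 12.4 CPM, and its shOSGEP levels 45.1, 205 and 28.3 CPM. The controls lay close together in CPM, and the 3 shOSGEP libraries were spread widely above them. In TPM the controls were further apart, at 43.6, 23.6 and 34.4. The Log2FC was 2.63 ± 0.760 (SE, 6.19-fold; edgeR p = 0.00815, exact permutation p = 0.1), and 1.37 without replicate 2 (SE 0.339). The same-numbered log2 ratios were 1.5, 3.62 and 1.19. Nupr1 also passed under all 19 alternatives, with values of 1.30 to 3.06.

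The feedback gene Ppp1r15a (chr7:45522916-45526268, minus strand), which encodes GADD34, had shCtr levels of 16.2, 31.9 and 17.2 CPM and shOSGEP levels of 40.8, 167 and 40.6 CPM. Each shOSGEP value was above every control. The Log2FC was 1.93 ± 0.671 (SE, 3.81-fold; edgeR p = 0.0199, exact permutation p = 0.1), 1.29 without replicate 2 (SE 0.257) and 0.93 without shOSGEP replicate 2 alone, where it no longer passed. Its constitutive paralogue Ppp1r15b, which encodes CReP and serves the same phosphatase in unstressed cells, was at 178, 65.6 and 167 CPM in shCtr and 200, 80.4 and 131 CPM in shOSGEP, a Log2FC of -0.00 ± 0.530 (SE). Ppp1r15a counted per Ppp1r15b was 0.091, 0.486 and 0.103 in shCtr and 0.205, 2.08 and 0.311 in shOSGEP. This was 2.25-fold, 4.29-fold and 3.02-fold higher in shOSGEP in replicates 1, 2 and 3. The groups overlapped, since the shCtr replicate 2 ratio lay above those of shOSGEP replicates 1 and 3. Exons of Ppp1r15a overlap Tulp2 on the opposite strand, which was at 1.08 to 7.08 CPM.

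Of the bZIP repressors, Atf3 and Jdp2, neither passed the threshold. Atf3 (chr1:191170296-191218039, minus strand), an early stress gene whose product often represses, was at 9.09, 10.7 and 9.50 CPM in shCtr and 12.7, 43.9 and 12.8 CPM in shOSGEP. The groups did not overlap, but shOSGEP replicates 1 and 3 lay near the controls. The Log2FC was 1.25 ± 0.592 (SE, 2.37-fold; edgeR p = 0.0672, exact permutation p = 0.1), and 0.46 without replicate 2 (SE 0.282).

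Jdp2 (chr12:85599027-85639878, plus strand), a close relative of Atf3 that binds Jun partners and ATF sites, was at 26.6, 19.0 and 31 CPM in shCtr and 30.4, 36.4 and 34.8 CPM in shOSGEP. The groups overlapped and the Log2FC of 0.41 ± 0.399 (SE; edgeR p = 0.336, exact permutation p = 0.2) was the smallest of the 10 with all libraries in edgeR. Jdp2 passed under none of the 19 alternatives. The non-coding gene Gm47863, which overlaps a Jdp2 exon on the opposite strand and was singled out after its values were seen, was at 2.34, 3.10 and 2.03 CPM in shCtr and 4.65, 11 and 3.99 CPM in shOSGEP (Log2FC 1.4 ± 0.584). Other genes share 7.06% of Jdp2's 31-base words, chiefly Gm47863, and how the reads of that stretch divide between both genes was not tested.

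**Figure D2:**
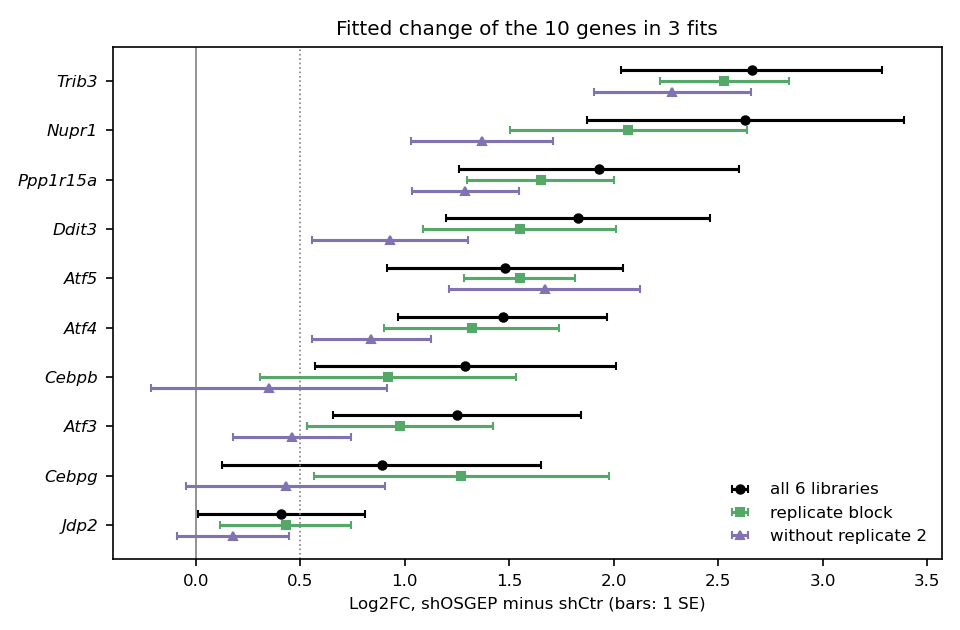
Log2FC (shOSGEP minus shCtr) of the 10 genes with 1 SE, fitted on all 6 libraries (black), with the replicate number as a block (green) and without replicate 2 (purple). The dotted line marks the study's 0.5 limit. Without replicate 2 the values run from 0.18 for Jdp2 to 2.28 for Trib3, and Atf5 is the only gene that is higher than in the full fit.

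The libraries of the same replicate number deviated together across genes (correlations of 0.811, 0.557 and 0.196), so each number was also read as a pair. For replicate 3 this is weak, since shCtr replicate 3 correlated more with shOSGEP replicate 1 (0.491). Of the 10 genes, 9 were higher in shOSGEP in all 3 same-numbered comparisons, which held for 17.6% of all genes tested. The exception was Cebpb, with log2 ratios of -0.42, 2.18 and 0.94. The median log2 ratio of the 10 genes was 0.79 in replicate 1, 2.35 in replicate 2 and 1.05 in replicate 3, and over all genes tested it was -0.03, 0.09 and -0.01. Replicate 2 therefore had the largest median change, with the largest ratio of the 3 for every gene but Atf5. The melanocyte marker sum was 17700, 29600 and 17000 CPM in shCtr and 18100, 3550 and 15400 CPM in shOSGEP, and its part in the replicate 2 values was not tested.

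**Figure D3:**
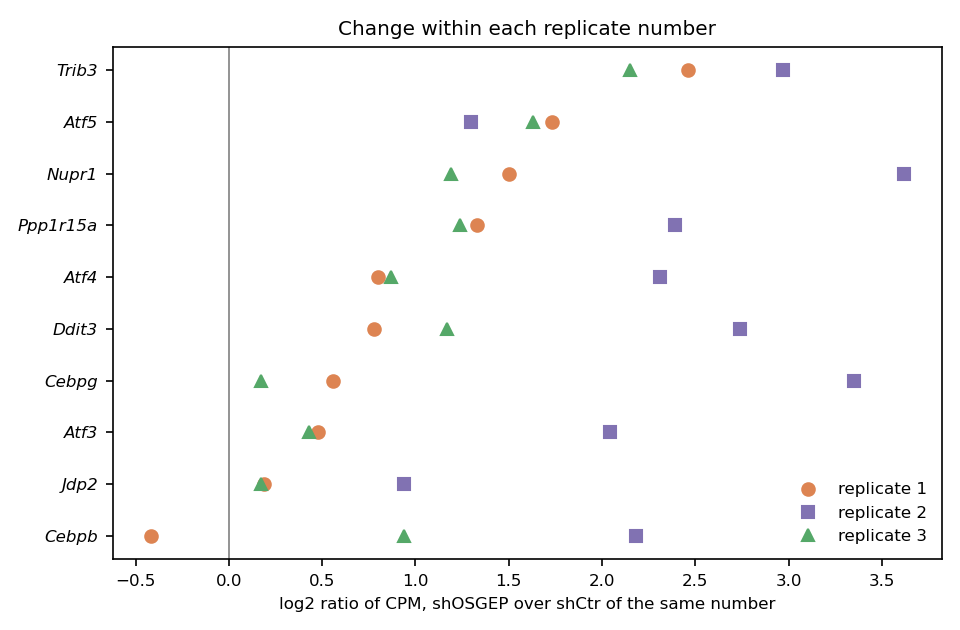
Log2 ratio of CPM, shOSGEP over shCtr of the same replicate number, for each of the 10 genes, with 1 marker per replicate number. All values lie above 0 except Cebpb in replicate 1 (-0.42), and replicate 2 (square) is farthest right for every gene except Atf5.

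Compared per transcript length, as TPM (counts per kilobase, scaled to the same sum in each library) computed from the counts, Atf4 was the most abundant of the 10 in both groups. Its shCtr level was 295 ± 112 TPM (SD, n = 3) and its shOSGEP level 870 ± 366 TPM. In shCtr, Ddit3 followed at 54.7 ± 24.6, then Atf5 at 41.4 ± 13.0, Trib3 at 34.4 ± 8.91, Nupr1 at 33.9 ± 10.1 and Jdp2 at 31.2 ± 15.6 TPM, and the ranges of these neighbours overlapped. Below them came Ppp1r15a at 13.5 ± 0.529, Cebpg at 10.4 ± 9.11, Atf3 at 9.23 ± 2.56 and Cebpb at 2.35 ± 0.726 TPM. The range of Ppp1r15a (13.1 to 14.1 TPM) overlapped those of Jdp2 above it and Cebpg below it, but not that of Atf3 (6.3 to 11 TPM). Cebpg had the widest range relative to its mean, 0.93 to 19.1 TPM, which also overlapped those of Atf3 and Cebpb, while Atf3 and Cebpb did not overlap. In shOSGEP, Trib3 came second at 252 ± 140 TPM, ahead of Nupr1 at 222 ± 204, Ddit3 at 208 ± 142 and Atf5 at 142 ± 41.0 TPM, and these ranges overlapped. Trib3 thus went from the fourth to the second place by mean.

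The promoters of the members were read for sites of this pathway. RefSeq windows of 300 bases (250 before and 50 after the start site, GRCm38.p6) were found for all 10 genes, 13 windows in all. The core of the C/EBP-ATF response element (CARE), the composite site that ATF4 binds with a C/EBP partner, was searched as TGATGNAA on both strands. It occurred in 4 of the 10 genes, Atf3, Nupr1, Trib3 and Jdp2 (1 of its 3 windows), and in 4.51% of the 27025 genes with a window (3.97% of 32851 windows). The cyclic AMP response element (CRE), searched as TGACGTCA, which reads the same on both strands, occurred in Ppp1r15a and in 2.03% of genes. The endoplasmic reticulum stress element, searched as CCAAT, any 9 bases and CCACG on both strands, occurred in 0 of the 10 members and in 0.14% of genes. The windows of Atf4, Atf5, Cebpb, Cebpg and Ddit3 held none of these letters, which says nothing of sites elsewhere.

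The 5 promoter stretches that hold a match are shown from 150 bases before to 30 bases after the start site, each on the strand of its gene, with the match in capitals. A CARE core that lies on the other strand appears here as its reverse complement. They are Atf3 at chr1:191183304-191183483 (minus strand, match beginning 110 bases before the start), Nupr1 at chr7:126625441-126625620 (minus strand, 110 bases before), Trib3 at chr2:152344031-152344210 (minus strand, 15 bases after), Jdp2 at chr12:85599266-85599445 (plus strand, 33 bases before) and Ppp1r15a at chr7:45526239-45526418 (minus strand, CRE 12 bases before).
Atf3: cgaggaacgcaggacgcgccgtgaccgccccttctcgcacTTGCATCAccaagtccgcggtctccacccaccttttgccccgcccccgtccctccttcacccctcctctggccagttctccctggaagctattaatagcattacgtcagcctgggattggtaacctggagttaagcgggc
Nupr1: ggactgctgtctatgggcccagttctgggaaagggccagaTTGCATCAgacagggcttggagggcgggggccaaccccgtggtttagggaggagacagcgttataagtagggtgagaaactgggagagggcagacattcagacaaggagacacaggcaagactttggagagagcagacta
Trib3: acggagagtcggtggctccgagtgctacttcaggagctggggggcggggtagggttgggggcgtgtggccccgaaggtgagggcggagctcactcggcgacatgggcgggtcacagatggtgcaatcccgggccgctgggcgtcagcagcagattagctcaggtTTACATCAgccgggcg
Jdp2: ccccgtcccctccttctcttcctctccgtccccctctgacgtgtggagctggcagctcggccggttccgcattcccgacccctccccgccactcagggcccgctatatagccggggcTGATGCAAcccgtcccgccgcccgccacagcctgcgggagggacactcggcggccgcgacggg
Ppp1r15a: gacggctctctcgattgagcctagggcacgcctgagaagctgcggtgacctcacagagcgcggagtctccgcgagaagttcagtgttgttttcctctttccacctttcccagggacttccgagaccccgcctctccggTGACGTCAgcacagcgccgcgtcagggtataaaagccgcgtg

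A match did not separate the members that passed the threshold from those that did not: of the 4 with a CARE core, Trib3 and Nupr1 passed and Atf3 and Jdp2 did not. The ATF4 target genes listed below held a CARE core in 12 of 31 with a window (38.71%) and a CRE in 0. A match is a description of the sequence, and no factor's binding was measured here.

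The coding sequences of the members were also counted for ANN codons, the codons read by t6A-modified tRNAs. Over 21645 protein-coding genes the median share was 27.7% (5th to 95th percentile 17.8% to 35.5%). Cebpg at 36.0% lay above that range and Atf5 at 14.8% and Trib3 at 16.9% below it. The others lay within it: Atf3 at 32.0%, Jdp2 at 30.7%, Nupr1 at 28.8%, Atf4 at 26.4%, Ddit3 at 25%, Ppp1r15a at 20.2% and Cebpb at 18.6%. Codon content was not tested against RNA change.

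The genes that the pathway acts on were read from a list of 40 known ATF4 target genes, of which 37 were tested. By the study's threshold 7 were higher and 0 were lower, against 1.59% of all genes higher, and their median Log2FC was 0.58. In 13 of the 37 all shOSGEP values lay above all controls (3.49% of all genes), and 26 were higher in all 3 same-numbered comparisons (17.6% of all genes). With the replicate block 13 passed, against 2.32% of all genes. Without replicate 2 in both groups 11 passed, against 1.26%, and without shOSGEP replicate 2 alone 3 passed, against 0.416%, all of them higher. The same 3, Aldh1l2, Cth and Slc1a4, remained without shCtr replicate 1, where 266 of all 12941 genes passed as higher. They also remained without shCtr replicate 3 (108 of 13199 genes) and without replicate 3 of both groups (108 of 13096). Without replicate 1 of both groups Slc1a4 did not pass, while Aldh1l2, Chac1, Cth and Psph did (188 of 12716 genes).

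The 4 targets with the smallest p belonged to one-carbon, sulphur amino acid, transport and carbon metabolism. Aldh1l2, a mitochondrial folate enzyme, was at 47.8, 27.3 and 54.6 CPM in shCtr and 263, 306 and 144 CPM in shOSGEP (Log2FC 2.46 ± 0.486). Cth, which makes cysteine from cystathionine, was at 11.9, 11 and 10.6 CPM against 55.7, 164 and 28.6 CPM (Log2FC 2.89 ± 0.672). Slc1a4, a neutral amino acid transporter, was at 30, 22.8 and 37.0 CPM against 87.4, 109 and 62.3 CPM (Log2FC 1.53 ± 0.427). Pck2, mitochondrial phosphoenolpyruvate carboxykinase, was at 57.9, 110 and 86.6 CPM against 159, 244 and 187 CPM (Log2FC 1.22 ± 0.419). Pck2 passed in 4 of the 9 fits with libraries left out. None of these 4 overlapped between groups (3.49% of all genes in this direction). They were picked by p in the same libraries, so this adds no separate support. The remaining calls, named after their values were seen, were Chac1, Gpt2 and Psph. The adjusted p of each was 1.00 in edgeR. At an adjusted p under 0.05, DESeq2 called 2 of the 37 targets higher, against 0.105% of all genes. Weighted and blocked limma-voom called 29 higher, against 6.73%, with the caution given above for that fit.

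Relatives of the members, other bZIP factors and the paralogues of Trib3 and Ppp1r15a, were compared to see whether the families moved together. Of 27 listed, 22 were tested, and the median Log2FC was -0.01. By the threshold 0 passed, close to the shares of all genes (1.59% higher and 0.426% lower). With the replicate block 2 passed, Atf6 and Nfil3, both higher, against 2.32% of all genes higher. Atf6, a membrane-bound sensor of the unfolded protein response, was at 86.6, 40.5 and 73.2 CPM in shCtr and 169, 135 and 94.1 CPM in shOSGEP (Log2FC 0.99 ± 0.451), without overlap. Nfil3, a bZIP repressor of the circadian system, had 1.14 ± 0.601. Tef, a bZIP factor of the PAR family, had -0.87 ± 0.450. It passed as lower with GC and length offsets, blocked or not. Of the 22, 1 had all shOSGEP values above all controls (3.49% of all genes) and 2 had all below (2.87%). The 2 lower genes were Tef and, named after its values were seen, Jun (Log2FC -0.59 ± 0.401).

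Trib1, the Trib3 paralogue that works with the ubiquitin ligase COP1, was at 7.05, 26.2 and 10.3 CPM in shCtr and 5.68, 3.87 and 7.89 CPM in shOSGEP, a Log2FC of -1.32 ± 0.617 (SE). It passed the threshold as lower in DESeq2, with GC and length offsets, without the filter on low counts and without shCtr replicate 1. Trib3 counted per Trib1 was 3.30, 2.21 and 3.74 in shCtr and 22.5, 117 and 21.7 in shOSGEP. Trib2 was at 2.36 to 4.98 CPM with a Log2FC of -0.40 ± 0.520. Among the C/EBP paralogues, Cebpa was at 0 in every library, and Cebpd was at 7.75 CPM in shOSGEP replicate 2 and at most 1.08 CPM elsewhere. The factors Atf2 (Log2FC -0.08 ± 0.813) and Creb1 (-0.03 ± 0.847) had standard errors far larger than the change itself.

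Upstream of these factors, the RNAs of the eIF2 kinases, eIF2 and its exchange factor eIF2B were described from a list of 16, all tested. The list also held Dele1, Oma1, Gcn1 and Impact, which belong to none of these 3 classes. None passed the study's threshold under any of the 19 alternatives or the main test, and the median Log2FC was -0.07. In the main test 1.59% of all genes passed as higher and 0.426% as lower, so 0 of 16 lies close to those shares. Weighted and blocked limma-voom called 1 of the 16 higher at an adjusted p under 0.05, against 6.73% of all genes (Impact, an inhibitor of GCN2 activation, named after its values were seen). Eif2ak1, which encodes the heme-regulated kinase HRI, was at 77.2, 105 and 88.6 CPM in shCtr and 67.3, 75.4 and 76.6 CPM in shOSGEP. All shOSGEP values lay below all controls, which held for 2.87% of all genes, but the Log2FC of -0.30 ± 0.365 was smaller than its error. In the other direction, 1 of the 16 had all shOSGEP values above all controls, against 3.49% of all genes. This was Oma1 (Log2FC 0.42 ± 0.426), named after its values were seen. Eif2ak2 (PKR) had 0.59 ± 0.685, Eif2ak3 (PERK) 0.58 ± 0.577 and Eif2ak4 (GCN2) -0.10 ± 0.463, with overlapping groups. The 4 genes listed next, of eIF2 and eIF2B, had the smallest p of the list: Eif2b4 (-0.78 ± 0.640), Eif2s2 (0.75 ± 0.699), Eif2b5 (-0.61 ± 0.568) and Eif2b1 (-0.45 ± 0.437). The activity of the kinases is set by phosphorylation, which RNA counts do not measure.

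**Figure D4:**
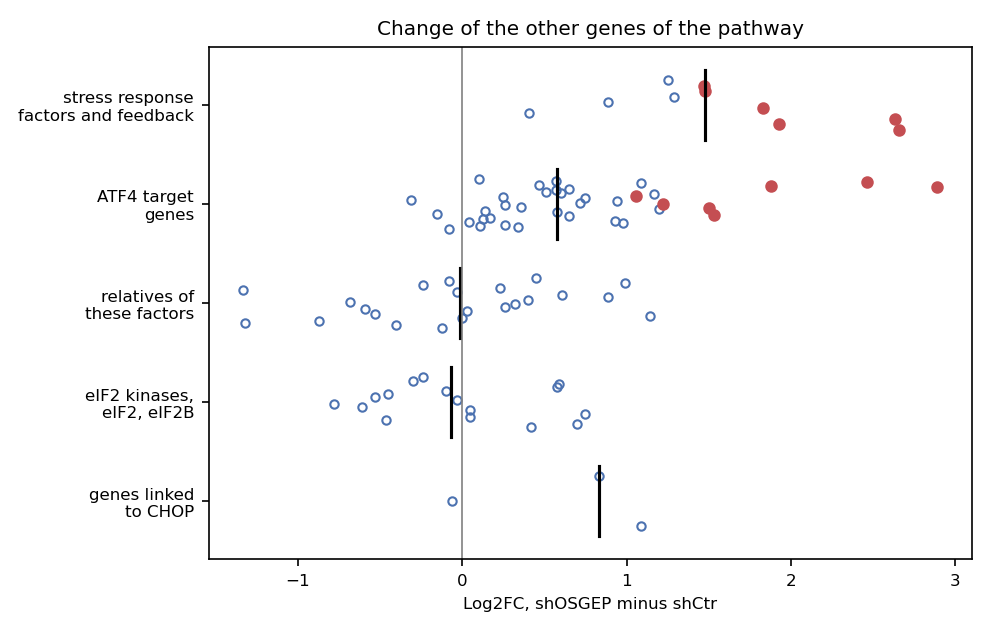
Log2FC (shOSGEP minus shCtr, all 6 libraries) of every tested gene of the 10 stress response genes, the ATF4 target genes, the relatives, the eIF2 list and the genes linked to CHOP, with each list's median as a line. Filled red points passed the study's threshold: 6 of 10 stress response genes, 7 of 37 targets and 0 in the other lists.

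Outside these lists, the genes whose same-numbered ratios lay closest to the median profile of the 10 were found by the root mean square difference over the 3 log2 ratios, among genes with a mean of at least 50 counts. They were Mmp11 (0.0772), Gm47260 (0.113) and Dmpk (0.124). Mmp11, a secreted metalloproteinase, was at 3.65, 2.26 and 2.26 CPM in shCtr and 6.70, 10.7 and 4.75 CPM in shOSGEP. Dmpk, a kinase of muscle, was at 10.7, 14.6 and 13.0 CPM against 16.7, 68.5 and 25.4 CPM. Gm47260, a predicted gene, was near the floor in replicates 2 and 3, at 0.147 and 0.323 CPM in shCtr against a floor of 3 counts, or 0.116 to 0.147 CPM. Likeness over 3 ratios is a description.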

How the data were processed

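RNA from 6 libraries of B16F10 cells (3 shCtr and 3 shOSGEP, grouped by sample title) was sequenced after polyA purification. Per the labels and the study's methods, the authors aligned trimmed reads to mouse GRCm38 with STAR 2.6.1d and quantified genes with Salmon 1.4.0. The annotation release is not given in the sources used here. The authors deposited the estimated counts per Ensembl gene as whole numbers, without normalization, so no rounding was needed. Because Salmon shares out ambiguous reads by probability, values of overlapping genes are uncertain.

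Genes were kept by edgeR's filterByExpr (minimum count 10, minimum total 15), scaled by TMM and tested with edgeR 4.0.16 by its two-sided quasi-likelihood F-test in R 4.3.3, with Benjamini-Hochberg adjustment over all 12669 genes. DESeq2 1.42.0 and limma 3.58.1 were alternatives. The study's threshold of Log2FC beyond 0.5 with unadjusted p under 0.05 was applied. The alternatives changed the tool, the scaling, the filter, GC and length offsets, the replicate block and the libraries left out. TPM and GC used the longest coding transcript of GENCODE M21, which held 99.4% of the identifiers. The tests were run first on simulated counts.

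Same-numbered libraries share a suffix in their library names. Their deviations from the group means correlated at 0.811, 0.557 and 0.196 for replicates 1, 2 and 3. All were above the limit of 0.1, so the numbers were treated as pairs in the blocked fit. That limit did not single out same-numbered libraries. The shCtr replicate 3 and shOSGEP replicate 1 libraries correlated at 0.491, and shCtr replicate 2 and shOSGEP replicate 3 at 0.138. The remaining differently numbered combinations correlated negatively, at -0.784 to -0.315. Library totals were 18915587 to 29487384 counts, and 3 counts correspond to 0.116 to 0.147 CPM. Intervals and floors cover counting error only. The members, gene lists and tests were chosen with earlier results of these data known. Named were all members, Osgep, the 4 eIF2 kinases, the 4 genes of each list with the smallest p, paralogues of members, and the 3 genes nearest in pattern.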

Additional observations from a re-analysis of the deposited data

How the results depend on the processing

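The direction of each of the 10 genes was kept under all 19 alternatives, and the median Log2FC of the 10 stayed between 0.88 and 1.75. The number past the study's threshold was 6 to 8 under the 10 alternatives that kept all libraries and 2 to 8 when libraries were left out. At an adjusted p under 0.05 the number was 1 with DESeq2 and 7 with limma-voom with sample quality weights and the replicate block, and 0 otherwise. ATF4 target genes past the threshold went from 7 to 15 with weighted limma-voom, 24 with weights and replicate block, 13 with the replicate block in edgeR, 16 with GC and length offsets and 21 with offsets and block, and from 3 to 12 with libraries left out. Relatives went from 0 to 1 with DESeq2, weighted limma-voom and upper-quartile scaling, 2 without the count filter and with the replicate block, and 3 with weighted and blocked limma-voom and with GC and length offsets, blocked or not, and 0 to 1 with libraries left out. Over all genes 256 passed, against 560 with weighted limma-voom, 1442 with weights and block, 599 without the count filter, 689 with offsets and 870 with offsets and block, and 67 to 453 with libraries left out. Among the 10 genes the replicate block in edgeR changed no call without offsets, whereas with GC and length offsets 8 passed, and adding the block left 6, without Atf3 and Cebpg. Upper-quartile scaling moved the median of all genes from -0.03 to 0.07. The cause of these shifts was not tested. Precision in edgeR was limited by 3 libraries per group with a between-library coefficient of variation of 0.567.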
